A study of Mus musculus with 2 samples.

Results

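The circadian clock repressors described here are 10 mouse genes, Per1, Per2, Per3, Cry1, Cry2, Nr1d1, Nr1d2, Ciart, Bhlhe40 and Bhlhe41, out of 21268 protein-coding genes that could be placed in mm10. They were named for their known function in the clock, with earlier results of these data known. Binding of the transcription factor USF1 was mapped by ChIP-seq with a USF1 antibody in CH12.LX, an immortalized female mouse B-cell lymphoma line of strain B10.H-2aH-4bp/Wts. There was 1 group of 2 samples, which the labels call biological replicates, with no treatment, time point or second genotype named. Whether these came from separate cultures is not stated, control libraries were not used here, and nothing in the data measures expression, so the cell type could not be checked against its markers. A binding site was counted for a gene when the summit of a region, its point of highest signal as the authors placed it, lay within 5 kb of any annotated 5' end of the gene or inside the gene.

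The mammalian clock runs on a negative feedback loop. CLOCK and BMAL1, basic helix-loop-helix proteins themselves, bind E-boxes and activate the Per and Cry genes, whose proteins return to the nucleus and repress CLOCK and BMAL1. The nuclear receptors REV-ERB alpha (Nr1d1) and REV-ERB beta (Nr1d2) repress transcription of the BMAL1 gene, and CHRONO (Ciart) and the DEC proteins (Bhlhe40, Bhlhe41) repress E-box activity as further arms. USF1 is a basic helix-loop-helix protein with a leucine zipper, of a separate family that reads the same canonical E-box, CACGTG, and it is widely expressed. Binding of CLOCK or BMAL1 was not measured in these samples, and no sampling time is given.

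The authors deposited regions rather than read counts, so the depth behind each value is unknown. Their optimal mm10 list, thresholded on the agreement of ranks between lists, held 8108 regions. Its median signal was 72.2 and its highest 640. The authors' conservative list held 7356 regions, 568 of them with no overlapping optimal region. Each replicate had its own relaxed list, of 25978 regions for replicate 1 and 44551 for replicate 2, and a relaxed list from both replicates together held 300000. Of the optimal regions, 8054 (99.3%) overlapped a region in each replicate. Across these, signal in replicate 2 relative to replicate 1 had a median log2 ratio of 0.18 (SD 0.51 over regions). A separate mm9 list of 10624 peaks, made by the authors from the same 2 libraries, was used for sequence and is not independent evidence. Signal is the authors' own value on a scale that is not given, so it was compared only within a list.

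The sequences at the USF1 summits show which E-box forms lay at the bound repressor genes. Each window reaches 50 bp to either side of an mm9 summit, with E-box forms in capitals: CACGTG, the canonical E-box; CACATG, read as CATGTG on the other strand; and CACGTT, read as AACGTG on the other strand, a form known as the E-prime box of Per2. All sequences run 5' to 3' on the strand of the gene, from the NCBIM37 (mm9) genome. Windows of sites at 7 of the 8 bound genes are given first, all but Per3, since most hold the canonical E-box and that of Cry2 does not.
Per1 promoter, chr11:68908495-68908595, plus strand: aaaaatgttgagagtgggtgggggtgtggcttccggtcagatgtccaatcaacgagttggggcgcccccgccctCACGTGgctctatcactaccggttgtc
Per1 intron, chr11:68911121-68911221, plus strand: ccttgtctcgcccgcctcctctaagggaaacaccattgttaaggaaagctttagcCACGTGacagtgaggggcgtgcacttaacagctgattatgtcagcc
Cry1 promoter, chr10:84647801-84647901, minus strand: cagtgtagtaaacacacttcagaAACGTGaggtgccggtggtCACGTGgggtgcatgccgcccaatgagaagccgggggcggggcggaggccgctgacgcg
Cry2 promoter, chr2:92274320-92274420, minus strand: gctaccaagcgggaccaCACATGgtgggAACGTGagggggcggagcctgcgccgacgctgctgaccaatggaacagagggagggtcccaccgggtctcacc
Nr1d1 intron, chr11:98635426-98635526, minus strand: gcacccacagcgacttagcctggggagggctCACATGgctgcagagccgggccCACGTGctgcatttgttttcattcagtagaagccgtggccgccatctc
Nr1d2 intron, chr14:19071019-19071119, minus strand: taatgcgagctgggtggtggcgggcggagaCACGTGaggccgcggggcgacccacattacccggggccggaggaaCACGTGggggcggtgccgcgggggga
Bhlhe40 promoter, chr6:108610344-108610444, plus strand: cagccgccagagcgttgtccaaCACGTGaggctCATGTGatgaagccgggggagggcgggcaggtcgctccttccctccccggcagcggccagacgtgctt
Bhlhe41 upstream site, chr6:145815225-145815325, minus strand: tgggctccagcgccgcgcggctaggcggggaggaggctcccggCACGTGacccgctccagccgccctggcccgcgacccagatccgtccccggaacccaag

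Shorter stretches of 30 bases centred on the E-box are given for 3 sites in or next to untranslated exons, and for 2 copies that no summit of the mm9 list covered. The Nr1d1 copy at -364 bp and the Per2 copy near its start are shown because they are E-boxes close to a 5' end that stayed outside the called sites.
Per3 site near its 3' end, chr4:150379935-150379964, minus strand: ccccctccaggtCACGTGggacacagagcc
Bhlhe41 promoter site, chr6:145814076-145814105, minus strand: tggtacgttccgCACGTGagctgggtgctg
Bhlhe41 downstream site, chr6:145812307-145812336, minus strand: cagcgcagggccCACGTGatgagcagatgt
Nr1d1 copy not at a summit, chr11:98636997-98637026, minus strand: cagttctccaatCACGTGaagctctcacgt
Per2 copy not at a summit, chr1:93355879-93355908, minus strand: agcgcgcgcggtCACGTTttccactatgtg

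The promoter of Ciart is given as the counterexample, a dense run of canonical E-boxes with no USF1 region in any list. The sequence is the part of the RefSeq promoter (GRCm38.p6, mm10) that lies upstream of the outermost annotated start.
Ciart promoter, chr3:95882258-95882478, minus strand: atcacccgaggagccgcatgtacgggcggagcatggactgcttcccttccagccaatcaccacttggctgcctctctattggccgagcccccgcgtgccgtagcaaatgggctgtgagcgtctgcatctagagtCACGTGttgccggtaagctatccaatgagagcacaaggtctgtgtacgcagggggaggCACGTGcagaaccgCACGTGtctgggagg

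USF1 was found at 7 of the 10 repressor genes in the optimal list, namely Per1, Per3, Cry1, Nr1d1, Nr1d2, Bhlhe40 and Bhlhe41, where the same rule called 22.8% of all 21268 genes (4841). Within 1 kb of a 5' end it was found at 6 of 10, all of these but Per3, beside 12.6% of all genes. The conservative list added Cry2 and so held 8 of 10 by the wider rule, beside 21.4% of all genes. In mm9 the same 8 of 10 genes were called, beside 26.0% of 22367 genes, and 7 of 10 had a summit within 1 kb, beside 14.3%. Per2 and Ciart had no site in any thresholded list. Gene span, which widens the net for sites inside genes, had a median of 22.6 kb among the 10 genes and 17.5 kb over all genes.

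**Figure D1:**
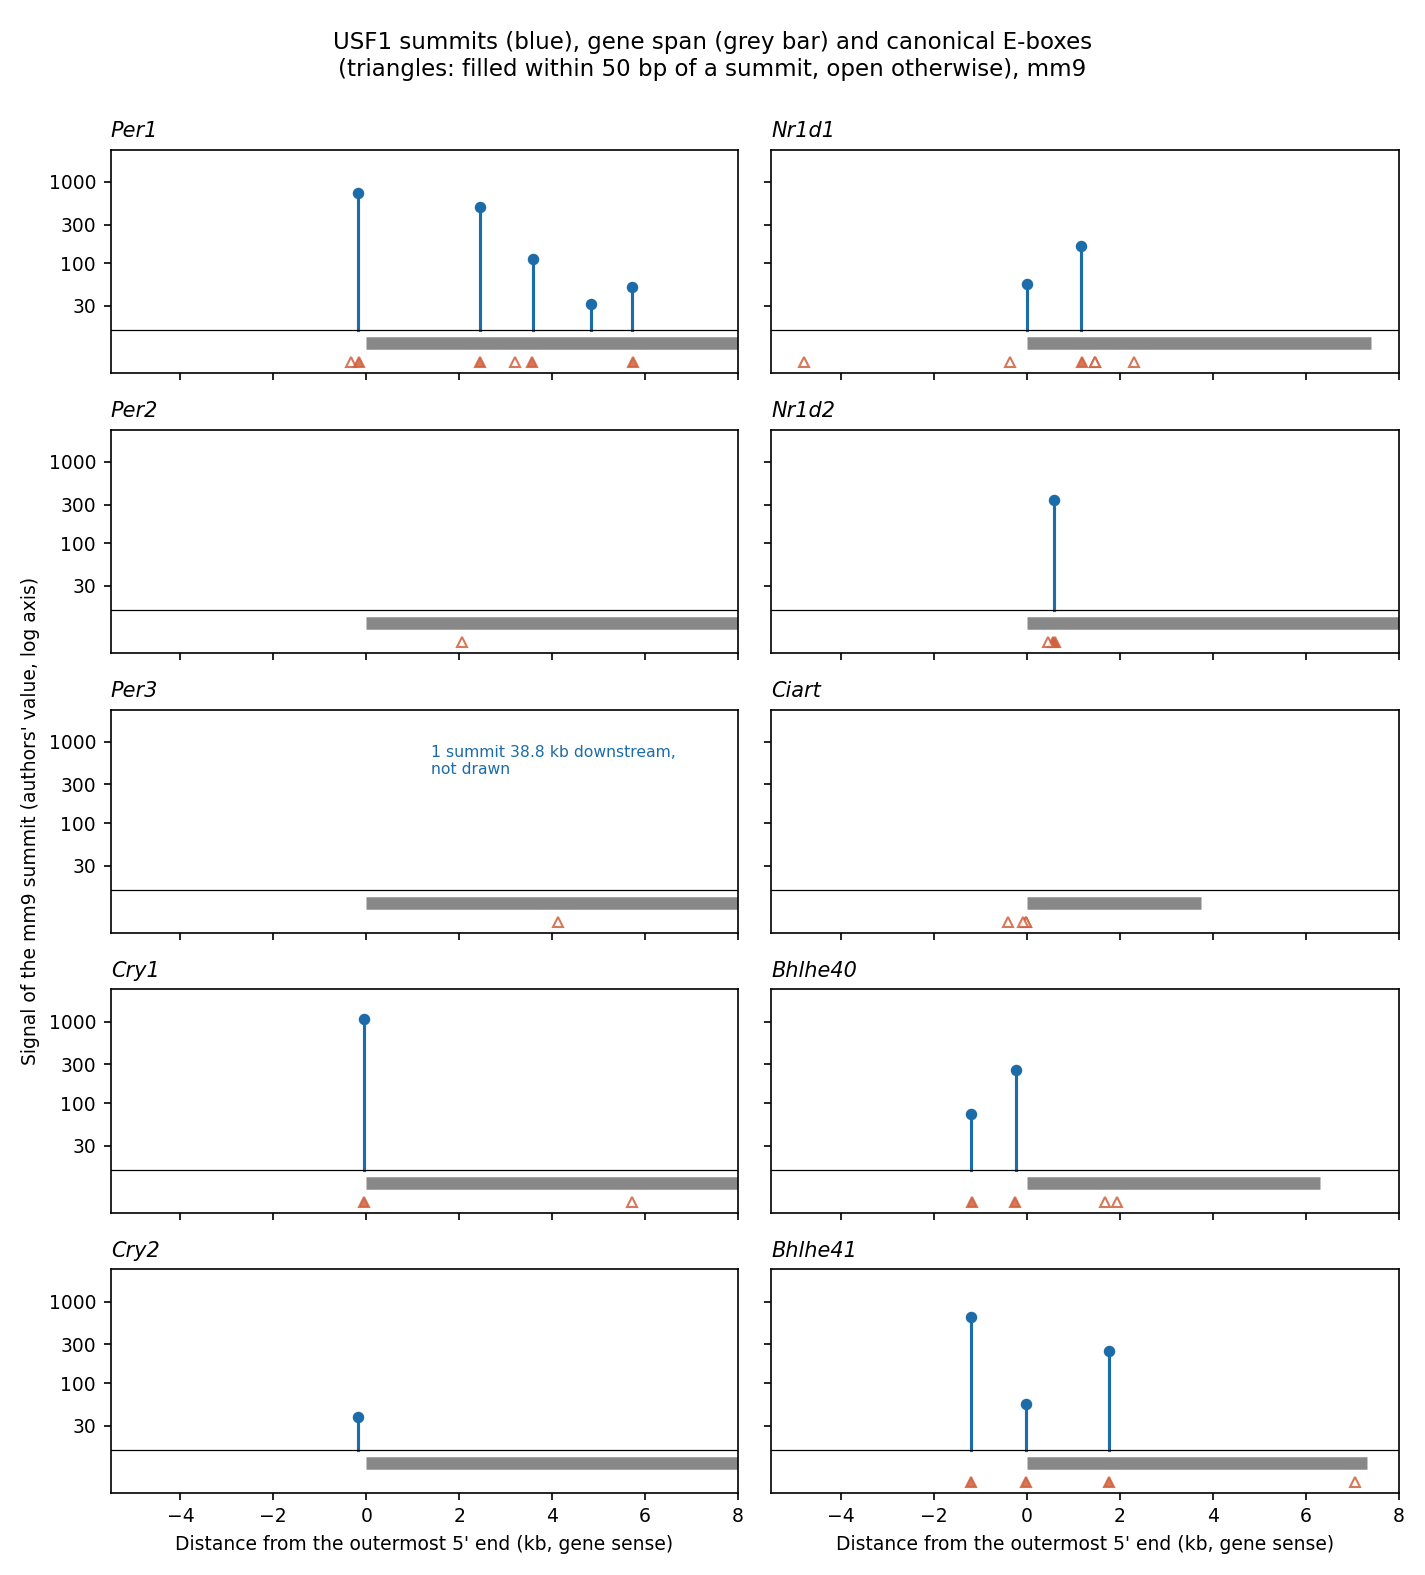
Positions of USF1 summits around each clock repressor gene in mm9, against distance from the outermost annotated 5' end in kb along the gene. Blue stems give the authors' signal on a log axis, grey bars the gene, and triangles the canonical E-boxes, filled within 50 bp of a summit and open otherwise. Copies and summits beyond 8 kb, the Per3 summit among them, are not drawn. Of the 10 genes, 8 carry a summit; Per2 and Ciart carry none, and the Ciart E-boxes, which partly overlap in the drawing, are all open.

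The bound repressor genes often carried several sites. The optimal list held 13 sites at the 7 genes, 7 of them within 1 kb of a 5' end. Per1 and Bhlhe41 had 3 sites each, a number reached by 1.43% of all genes, and Nr1d1 and Bhlhe40 had 2 each. With Per1 and Bhlhe41 that made 4 of 10 genes with 2 or more sites, beside 5.14% of all genes. Just outside the rule, Cry1 had an optimal summit of 35.2 at 3549 bp past its 3' end, and Bhlhe41 an mm9 summit of 31.0 at 2359 bp past its 3' end. The strongest site of each called repressor had a median signal of 234, against 101 over all called genes. A strongest value tends to rise with the number of sites in a gene. Of the 7 called repressors 4 had 2 or more sites, beside 1093 of 4841 called genes, and the part this plays was not tested. For sites within 1 kb the medians were 204 and 131.

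Among the period genes, which encode the PER proteins that carry the cryptochromes into the nucleus, Per1 was the most heavily bound. Its promoter summit lay at -62 bp from the outermost 5' end (chr11, position 69095046, mm10) with an optimal signal of 358, rank 714 of the list. The signal there was 172 in replicate 1 and 181 in replicate 2, a log2 ratio of 0.07. The replicates were close at this site, with a mean of 177 ± 6.22 (SD, n = 2).

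Per1 had 2 further optimal sites between that start and an inner start of the gene. The stronger of these lay 2561 bp downstream of the outermost 5' end, inside an intron, with an optimal signal of 301 and values of 129 and 172 in replicates 1 and 2. The other lay at -131 bp from the inner 5' end with an optimal signal of 84.4, and its replicate values were 35.3 and 48.9. Both were higher in replicate 2, by log2 ratios of 0.42 and 0.47, within 1 SD of the median over all shared regions. The mm9 list held 5 sites at Per1, 2 more than the optimal list, with signals of 724, 487, 112, 31.4 and 51.8 in order along the gene. Each of these summits had an E-box within 50 bp, canonical at 4 of them and CACATG alone at the weakest.

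Per3, a period gene thought to be less central to rhythm than Per1 and Per2, was called only through a site far from its start. The summit lay 38805 bp downstream of the nearest 5' end, in mm9 in an untranslated exon near the end of the gene, with an optimal signal of 122. It was 43.6 in replicate 1 and 73.9 in replicate 2, a log2 ratio of 0.76. Uts2, a gene on the opposite strand, overlaps Per3 in the RefSeq annotation, and the summit lay outside it. No canonical E-box was present within 1 kb of the Per3 start, and the only relaxed region there, from both replicates together, had a signal of 7.42. The gene as a whole held 14 canonical E-boxes by the wider rule, the largest number of the 10 genes, and 1 of them was at a summit.

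Per2, a period gene required for sustained rhythms in mice, had no site in the optimal, conservative or mm9 list. The relaxed list from both replicates held a region at 25 bp past its 5' end with a signal of 20.6, rank 13824. Replicate 2 had a region of its own at 28 bp with a signal of 13.5, and another at -197 bp with 9.78. Replicate 1 had none within 1 kb, and its only region in the gene, at 9697 bp, had a signal of 7.92. The replicates therefore did not both show a region at the Per2 start. The nearest optimal summit lay 60.4 kb away. No canonical E-box was found within 1 kb of the Per2 5' ends, while the CACGTT copy printed above lay in an untranslated exon, 11 bp past the nearest mm9 start. A copy of TTATGTAA, the D-box through which PAR-bZIP factors act, lay at -116 bp.

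The cryptochromes, which encode the repressor proteins that act on CLOCK and BMAL1 directly, differed widely from each other in signal. Cry1 had the strongest site of all 10 genes, at -70 bp from its start (chr10, position 85185124, mm10), with an optimal signal of 399, rank 592 or the top 7.30% of the list. Its values were 197 in replicate 1 and 200 in replicate 2, a mean of 199 ± 2.41 (SD, n = 2). The log2 ratio of 0.02 was the nearest to 0 of the 14 sites. In mm9 its signal was 1093, rank 454. In the Cry1 window an AACGTG and a CACGTG lie 13 bases apart, with the canonical copy centred 5.5 bp from the summit.

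Cry2 was found in the conservative list and not in the optimal list, 1 of 568 conservative regions with no optimal counterpart. Its summit at -162 bp had a conservative signal of 40.0, rank 6533 of 7356, with 17.5 in replicate 1 and 20.9 in replicate 2. Among the 14 sites, only the Bhlhe41 promoter was lower in replicate 1, and only the Nr1d1 start in replicate 2. The mm9 signal was 38.0. The Cry2 window holds a CACATG and an AACGTG with 5 bases between them and no canonical E-box. Among all mm9 summits 1.88% had a CACGTT within 50 bp, and 2.73% of those within 1 kb of a 5' end did. Cry1 and Cry2 were the 2 of 16 repressor summits that had it. The 7 canonical E-boxes in Cry2 all lay over 10 kb downstream of its start, and none was at a summit.

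**Figure D2:**
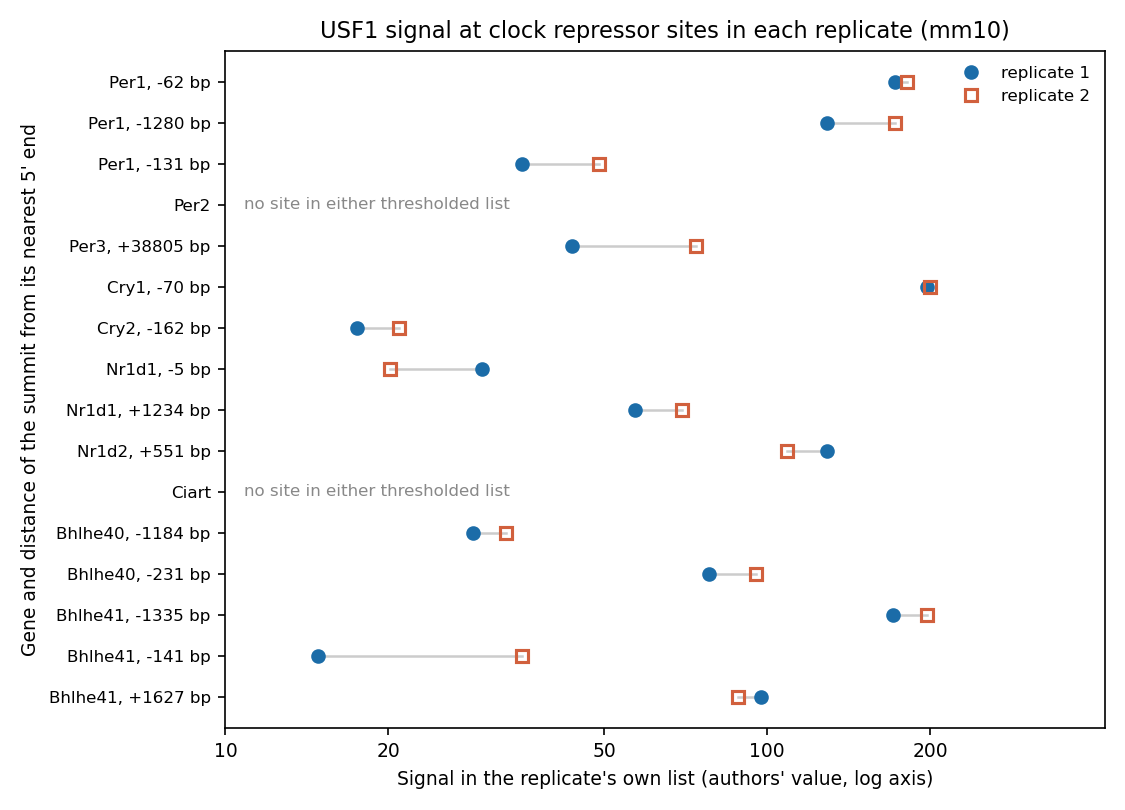
Signal of each clock repressor site in replicate 1 (filled circles) and replicate 2 (open squares), on a log axis, with the distance of the summit from its nearest 5' end in mm10. All 14 sites were found in both replicates, as were 99.3% of all optimal regions. Of the 14 sites, 11 were higher in replicate 2, and the widest gap, 14.8 against 35.3, is at the Bhlhe41 promoter.

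The REV-ERB genes encode the nuclear receptors that silence the BMAL1 gene. Nr1d2 had a single optimal site, 551 bp past its start, in mm9 in an intron, with a signal of 234 and values of 129 in replicate 1 and 109 in replicate 2. This was 1 of 3 sites higher in replicate 1, with a log2 ratio of -0.24. Its mm9 window was the only one of the 16 with 2 canonical E-boxes, 39 bases apart, which 2.71% of all mm9 summits had. Of the 3 canonical copies within 1 kb of the Nr1d2 start, 2 were at the summit.

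Nr1d1 had a weak site at its start and a stronger one in an intron. The summit at -5 bp had an optimal signal of 47.5, rank 5882, with 29.8 in replicate 1 and 20.1 in replicate 2. This was the largest excess of replicate 1 among the sites, a log2 ratio of -0.57, where 13.4% of all shared regions lay farther from the overall median. The intron site, 1234 bp past the start, had an optimal signal of 120 with 57.0 and 69.7 in replicates 1 and 2. The order of both was the same in each replicate. The intron site held CACATG and CACGTG with 16 bases between them. The Nr1d1 copy of the form TCACGTGA, at -364 bp, was at no summit, although 54.0% of the TCACGTGA copies within 1 kb of any 5' end were. An optimal summit of 181 lay at -8136 bp, just outside the distance counted. Thra, the neighbour on the opposite strand, overlaps the 3' end of Nr1d1.

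Bhlhe40 (DEC1) and Bhlhe41 (DEC2) encode basic helix-loop-helix repressors that compete at E-boxes. At Bhlhe40 the promoter summit, at -231 bp, had an optimal signal of 174 with 78.0 in replicate 1 and 95.3 in replicate 2. A second site at -1184 bp had 63.0, with 28.7 and 33.0. Both lay upstream of the start and both held a canonical E-box in mm9, the promoter one with a CATGTG 5 bases further on.

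At Bhlhe41 the strongest site did not lie at the start. The summit at -1335 bp had an optimal signal of 365, rank 687, with 171 in replicate 1 and 197 in replicate 2. A site 1627 bp past the start, in mm9 in an untranslated exon, had 186, with 97.5 and 88.2. The promoter site at -141 bp had 49.2 and was absent from the conservative list. Its values, 14.8 and 35.3, gave the largest log2 ratio of the 14 sites, 1.25, and 5.20% of all shared regions lay farther from the overall median. Without replicate 2, with the count of regions held at that of the optimal list, this promoter site was not called and Cry2 was called in its place, so 6 of 10 genes still had a summit within 1 kb. Without replicate 1 both were called and the count was 7.

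**Figure D3:**
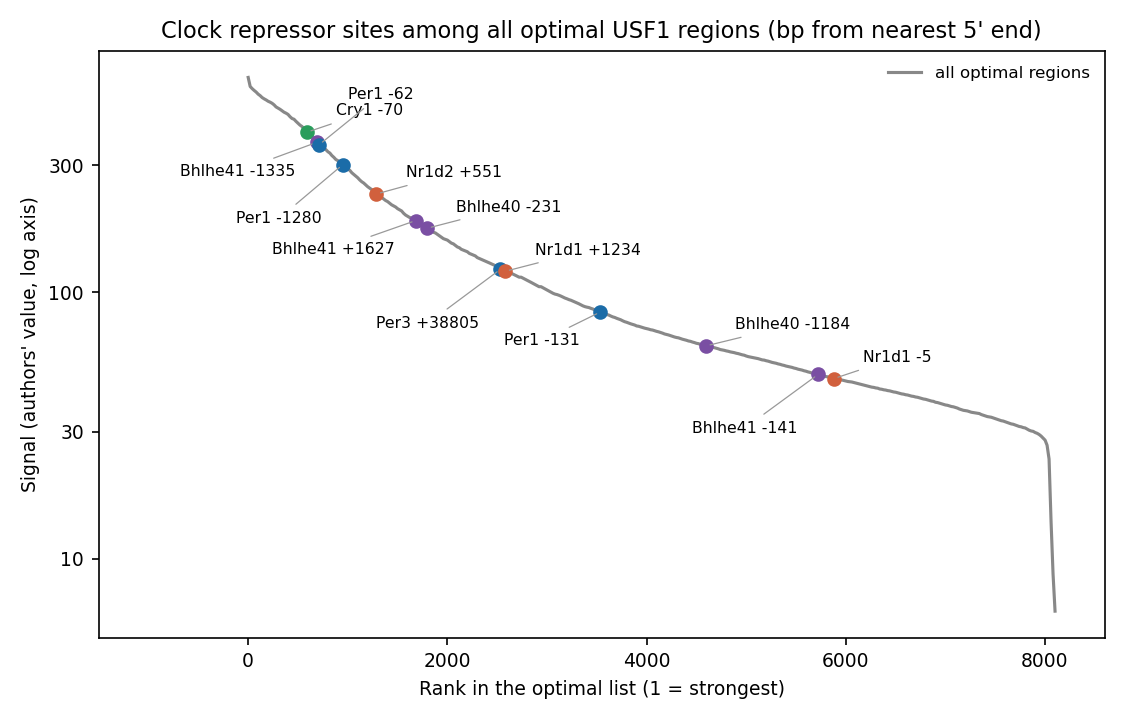
Authors' signal (log axis) against rank for all 8108 optimal regions (grey line), with the 13 clock repressor sites marked and labelled by gene and distance in bp from the nearest 5' end. The sites run from rank 592 at Cry1 to rank 5882 at the start of Nr1d1, with Cry1, Bhlhe41 and Per1 among the first 1000.

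All 14 mm10 sites, the 13 optimal ones and that of Cry2, overlapped a region in each replicate's own list. So did 99.3% of all optimal regions and 99.9% of all conservative regions. At the 14 sites, the summit in the replicate's list lay at most 53 bp away in replicate 1 and 24 bp in replicate 2. The median log2 ratio was 0.23 over the 14 sites, and 68.6% of all shared optimal regions had a ratio over 0, as did 11 of these 14. Outside the Bhlhe41 promoter, Nr1d1 start and Per3 sites, the log2 ratios ran from -0.24 to 0.47.

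Ciart, which encodes CHRONO, had no region by the rule in any list, down to the 300000 relaxed regions made from both replicates. That was so for 16.1% of all genes (3425), and the median gene had 5 such regions. Ciart is also the shortest of the 10 genes, at 3.76 kb. The nearest relaxed summit lay 7.72 kb away with a signal of 6.46, and the nearest optimal summit lay 23.2 kb away with 104. The Ciart promoter held 3 canonical E-boxes in its 300 bases, a density shared by 23 of 21045 RefSeq promoters (0.109%). Of these 23 promoters, 16 (69.6%) had an optimal summit within 1 kb and 5 (21.7%), Ciart among them, had no relaxed region within 1 kb. With 1 copy the share with an optimal summit was 53.1% of 1506 promoters, and with none it was 8.33% of 19380.

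**Figure D4:**
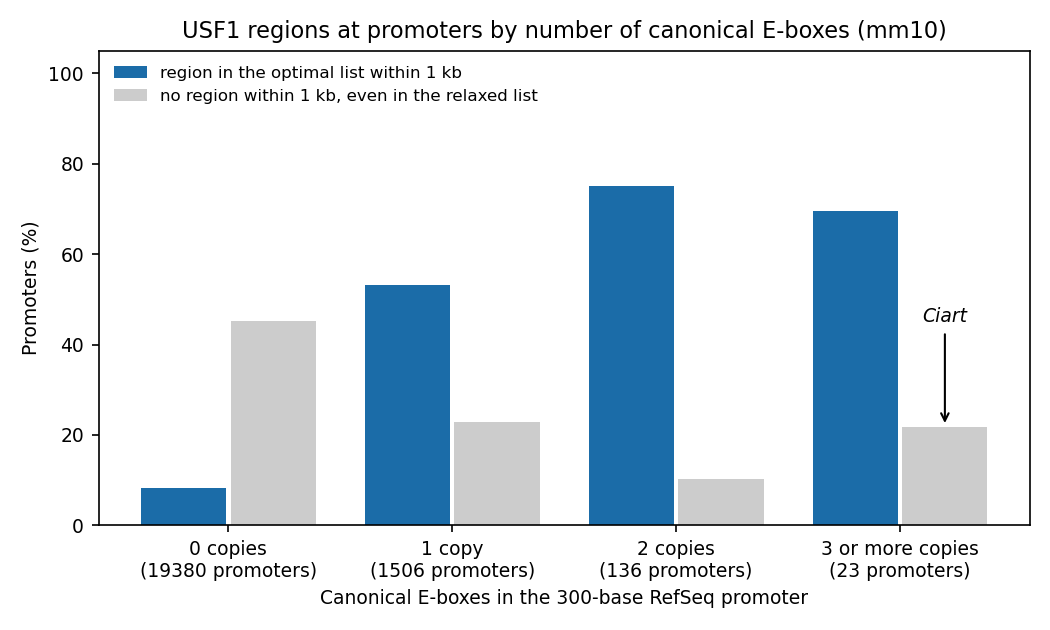
Share of RefSeq promoters (300 bases) with an optimal USF1 region within 1 kb (blue) and with no region within 1 kb even in the relaxed list (grey), by the number of canonical E-boxes in the promoter. The share with an optimal region runs from 8.33% without a copy to 75.0% with 2 copies; Ciart falls in the grey bar of 21.7% at 3 or more.

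The bases beside the E-box were compared between Ciart and the bound genes. The 4 Ciart copies within 1 kb were of the forms ACACGTGC, GCACGTGC, ACACGTGA and CCACGTGC, reading 1 base on each side with both strands merged. Within 1 kb of all 5' ends these forms were at an mm9 summit in 4.72%, 7.69%, 17.5% and 14.5% of copies. Neither ACACGTGC nor GCACGTGC was at a summit of the 10 genes, which held 6 and 2 copies by the wider rule, those of Ciart among them. Over all genes 0.496% and 0.949% of such copies were at a summit, so 0 of so few copies does not set these forms apart. ACACGTGA was at 2 repressor summits, in Nr1d2 and Bhlhe40, and CCACGTGC was at 2, in Per1 and Nr1d1, so both forms are shared between Ciart and bound genes. The commonest form at the repressor summits was CCACGTGA, at 6 sites in Per1, Per3, Cry1, Bhlhe40 and Bhlhe41. These were 6 of its 11 copies in the 10 genes by the wider rule, beside 6.61% of 17064 in all genes. It was also the commonest form at summits over all genes, with 1128 of 4136 copies. Within 1 kb of a 5' end the 10 genes held 2 copies, both at a summit, beside 35.3% at a summit over all genes. Bhlhe41 also had GCACGTGA at 2 sites, of 5 copies in the 10 genes by the wider rule, beside 3.76% of copies in all genes. Within 1 kb of a 5' end the 10 genes held 1 copy, which was at a summit, beside 23.3% at a summit over all genes.

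Over the 10 genes, 14 of 59 canonical E-boxes by the wider rule were at an mm9 summit, beside 3.15% of 131282 copies in all genes. Within 1 kb of a 5' end 8 of 16 were, beside 19.3% of 9758. The copies at a summit were spread over Per1 with 4, Bhlhe41 with 3, Nr1d2 and Bhlhe40 with 2 each, and Per3, Cry1 and Nr1d1 with 1 each. Copies in 1 gene share their surroundings, and these counts are descriptions.

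Of the 16 mm9 summits at the repressor genes, 13 (81.2%) had a canonical E-box within 50 bp and 3 (18.8%) had CACATG alone. The 16 summits lay at 8 genes, with the most at Per1 and Bhlhe41, and summits in 1 gene share their surroundings. No summit had neither in this window. Over all mm9 summits the shares were 53.3%, 30.1% and 16.6%, and over those within 1 kb of a 5' end 56.7%, 12.4% and 30.9%. The 3 sites with CACATG alone, Cry2 and the weakest Per1 site among them, had signals of 31.4 to 56.1, all below the mm9 median of 62.9. The 13 canonical sites had a median signal of 246, against 75.5 for canonical sites over the whole mm9 list and 216 within 1 kb of a 5' end. With 25 bp on each side 10 of 16 had a canonical E-box, 2 had CACATG alone and 4 had neither, and the canonical share over all mm9 summits was 47.5%. The canonical count fell because the copies at the Per1 promoter and the Per1 intron site with a signal of 51.8 were centred 26.5 bp and 29.5 bp from the summit and that at Bhlhe40 25.5 bp.

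Other promoter elements were counted at the same summits. TTATGTAA and TGACGTCA, the cAMP response element, were at 0 of the 16 summits and at 0.207% and 0.875% of all mm9 summits. AGGTCA, the core to which REV-ERB and ROR receptors bind, was at 2 of 16 (12.5%), in Per1 and Per3, and at 15.4% of all. GGGCGG, the GC box, was at 7 of 16 (43.8%) and at 13.2% of all mm9 summits and 34.7% of those within 1 kb of a 5' end. CCAAT was at 4 of 16, in Per1 at 2 sites and in Cry1 and Cry2, and at 20.3% of those within 1 kb. The RefSeq promoter of Per3 held 2 copies of TTATGTAA, which 0.903% of promoters held at all.

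Of the activators that the repressors act on and their nuclear receptor partners, 0 of 7 had an optimal summit within 1 kb of a 5' end and 3 of 7 had a site by the wider rule. Of the PAR-bZIP output genes and their repressor, 2 of 4 had a summit within 1 kb. These were Tef, with a signal of 413, and Dbp, with 167, which both encode activators that act through D-boxes. Of the kinases, ubiquitin ligases and other regulators of PER and CRY, 6 of 22 had a summit within 1 kb. The 4 strongest of these were Cipc at 566, which encodes a CLOCK-interacting repressor, Sirt1 at 306, Nampt at 165 and Usp2 at 125. In all, 8 of these 33 genes had a summit within 1 kb and 14 of 33 by the wider rule, beside the 12.6% and 22.8% of all genes given above. All of these lists were written with earlier results from the same data known.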

How the data were processed

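Of the 6 region lists used, 5 are in mm10 and 1 in mm9. The signal of a region is the authors' deposited value (column 7), left unscaled. Per the deposited readme files, the optimal and conservative lists were thresholded by IDR from relaxed lists, and the mm9 list came from both replicates' alignments. For peak caller, threshold, aligner and depth, nothing is given in the sources used here. The summit was the start (column 2) plus the offset in column 10. Coordinates are 1-based and none was converted between builds.

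Genes in mm10 came from RefSeq (GRCm38.p6), with strand and further 5' ends from its promoter table for 17492 of 21900 genes and strand from Gencode vM1 for 3994; the 414 without strand, and genes on chromosomes without optimal regions, were left out. The promoter table held no entry for Per2 or Bhlhe40. Genes and sequence in mm9 came from Gencode vM1 and NCBIM37. A site matched a replicate at an overlap of at least 1 bp, taking the nearest summit. Optimal and conservative summits within 100 bp were 1 site. Motifs were searched on both strands within 50 bp of each mm9 summit; the letters of all 8 are given in the text, and motifs that overlap were each counted. Shares of promoters used 21045 RefSeq windows of 300 bases.

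With 1 group, no test was run: counts stand beside the same count over all genes or summits. All 10 members are reported; other genes are named if they overlap or adjoin a member, or belong to 3 lists of clock genes and have a summit within 1 kb, with values for at most the 4 strongest of each list. The members and lists were chosen with earlier results of these data known. The rules were checked on simulated data. Python 3.11.15, pandas 2.3.3, NumPy 2.4.6 and Matplotlib 3.10.9 were used.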

Additional observations from a re-analysis of the deposited data

How the results depend on the processing

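Under other choices of list, distance, window, overlap and replicate, 7 results were recomputed in 26 alternatives. Of these, 23 kept each count within 1.5 times its value or each value within its spread. That range is wide for small counts, so a count of 6 that fell to 4 was still kept. The 3 that moved were all for the position of the strongest site, given below. The count of 7 genes by the wider rule was 8 without replicate 1 (23.2% of all genes) and 8 without replicate 2 (22.9%), Cry2 being added. The count of 6 genes within 1 kb ranged from 6 to 7 on leaving out a replicate (12.6% and 13.0% of all genes), and was 4 in the stronger 50% of the optimal list (8.48%), without Nr1d1 and Bhlhe41. The mm9 count of 8 was 7 in the stronger 50% of that list (16.2%), without Cry2. The strongest site of each called gene had a median position in the top 15.9% of the optimal list, and 17.5% in the conservative list. It was 4.08% in the list of replicate 1 and 3.48% in that of replicate 2, which are longer lists. No paired analysis was possible because there is 1 group. With 2 replicates and unknown depth, a weak region found in a single replicate, as at Per2, cannot be told apart from a missed one.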
